A study of Macaca mulatta with 6 samples.

Results

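The insulin-like growth factor (IGF) system is described here in libraries labelled as cortical neurons from rhesus monkeys (Macaca mulatta). It is a set of 10 genes for the ligands, receptors and binding proteins. The genes were chosen by symbol, and the set was picked on measured values, because IGF2 and IGFBP3 were much higher after morphine than after saline. Of the 10 genes, 8 had a row among the 23191 genes of the deposited table, and IGFBP2 and IGFBP6 were not analysed here. All 8 had a mean of at least 10 normalized counts (reads divided by a size factor per library, made by the authors) and entered the fit over 16595 genes. The lowest mean was 107.9, for IGF1.

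IGF1 and IGF2 are secreted peptides related to insulin. Both activate IGF1R, a receptor tyrosine kinase that signals through adaptor proteins to the PI3K, AKT and mTOR kinases and to the Ras and MAP kinases, while IGF2R takes up IGF2 and delivers it to lysosomes. The IGF binding proteins hold the ligands outside the cell and can block or prolong their action, and proteases release the ligands again. In the adult brain IGF2 is known mainly from the leptomeninges, the choroid plexus and blood vessels, and IGF1R is widespread in neurons and glia.

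Polyadenylated RNA was sequenced in 6 libraries, 3 from male monkeys given morphine, an opioid, and 3 from male monkeys given saline. The animals were 3 to 4 years old, and each received 3 subcutaneous injections daily over 90 days, with 3 mg/kg of morphine at first, raised in steps to 15 mg/kg from day 29, or 0.5 mL/kg of saline. The protocol names 4 animals, 2 per group, so the 3 libraries of a group cannot all come from different animals. P-values and standard errors therefore measure the spread between these libraries, are too small as tests over animals, and do not separate the drug from differences between animals. Depth lay between 31238653 and 36345095 reads per library.

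Transcripts of neurons were abundant in all libraries, but so were those of glia, whose levels are given with those of other cell types. Over 12 neuron markers the summed level was 218928 to 221341 normalized counts in morphine libraries and 270819 to 280116 in saline libraries. In limma, 2 of these markers rose and 6 fell, among them the neurofilament gene NEFL (log2 fold change -0.73). Over all 16595 genes tested 12.9% rose and 15.0% fell. The tubulin gene TUBB3 rose by 0.23, a call lost whichever library was left out. Without 1 library, 0 neuron markers rose and 5 or 6 fell.

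IGF2, the ligand made mostly outside neurons, was higher in every morphine library than in any saline library. It had 864.0, 1007 and 821.5 normalized counts in the morphine libraries, against 256.5, 248.6 and 223.6 in the saline libraries. The groups were far apart: the lowest morphine library held 813 reads and the highest saline library 260. The group means were 897.4 ± 97.1 in morphine and 242.9 ± 17.2 in saline libraries (SD, n = 3 each), a 3.69-fold ratio and a log2 fold change of 1.88 ± 0.103 (SE). That is rank 260 from the top among the 16595 genes, in the contrast that the choice of the set used. It is a description, as are all values of the 8 genes in this contrast, and no p-value is given for them. In the same libraries 18 leptomeningeal markers summed to 22534 to 23690 normalized counts in the morphine and 25211 to 25858 in the saline libraries. Without the most abundant, ALDH1A1, the order turned, at 7525 to 7825 in the morphine and 4886 to 4996 in the saline libraries. ALDH1A1 is also the only marker of this list called lower, so leaving it out favours a higher sum in the morphine libraries. No other list was summed without a gene. The part of these markers in the level of IGF2 was not tested.

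IGF1, the other ligand, was low and variable, and its groups overlapped. It had 111.6, 63.5 and 114.3 normalized counts in the morphine libraries, against 97.7, 150.3 and 109.7 in the saline libraries. The lowest value was in morphine library 2 (70 reads) and the highest in saline library 2 (150 reads). The log2 fold change was -0.33 ± 0.291 (SE), with a 95% interval from -1.06 to 0.41. Without morphine library 2 it was -0.05. IGF1 varied by 29.6% between morphine libraries and by 23.1% between saline libraries (coefficient of variation), where counting error alone gives 10.1% and 9.22%.

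**Figure D1:**
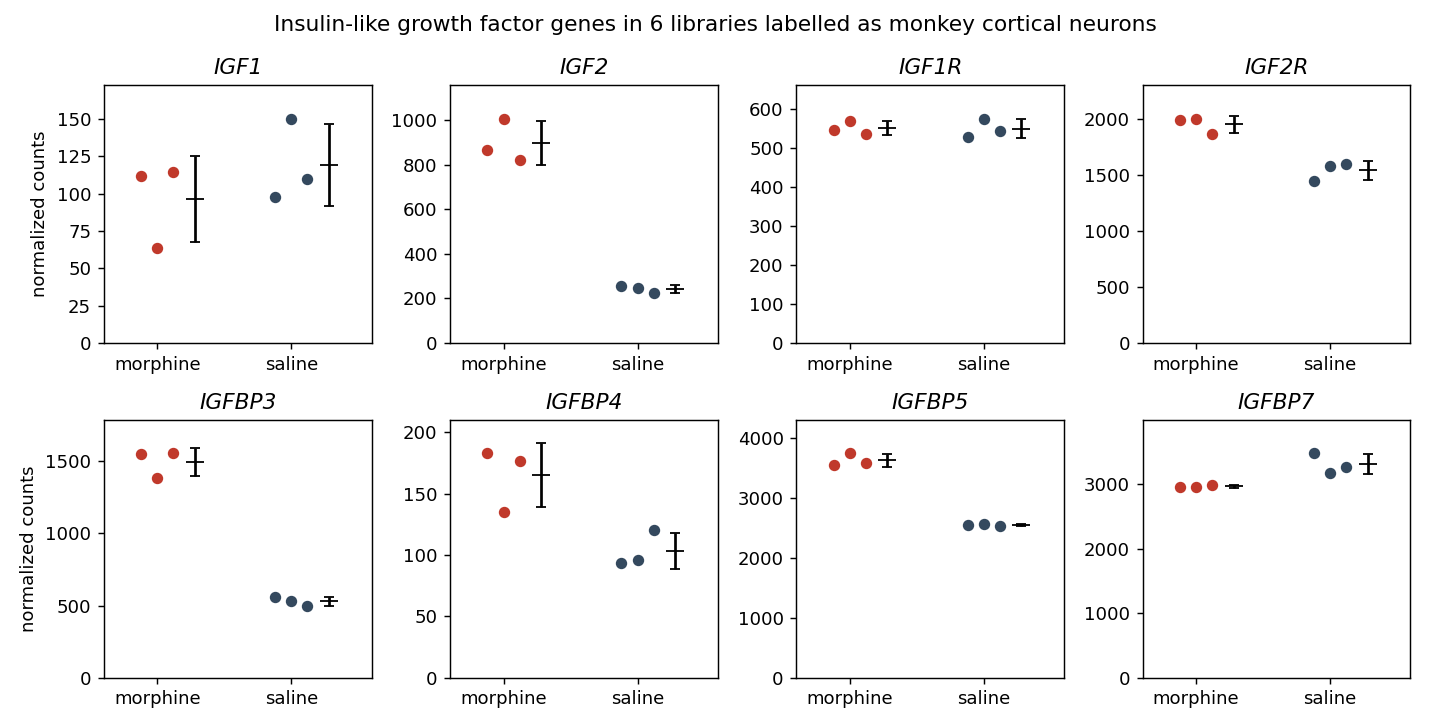
Normalized counts (vertical axis, from 0) of 8 genes of the IGF system in each of 3 morphine and 3 saline libraries (points), with the group mean and SD beside them. The groups lie far apart for IGF2 and IGFBP3, lie apart by less for IGF2R, IGFBP4, IGFBP5 and IGFBP7, and overlap for IGF1 and IGF1R.

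The receptor that signals, IGF1R, stood at the same level in both groups within the spread of the libraries. It had 545.2, 569.2 and 536.1 normalized counts in the morphine libraries, against 526.9, 574.3 and 542.1 in the saline libraries. The highest and the lowest value were both saline libraries, so the groups overlapped fully. The log2 fold change was 0.01 ± 0.0583 (SE), with a 95% interval from -0.14 to 0.15, and the spread within groups (3.11% in morphine, 4.42% in saline) was about that of counting error (4.20% and 4.30%).

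IGF2R, the receptor that clears IGF2, was moderately higher in the morphine libraries. It had 1988, 2001 and 1860 normalized counts there, against 1444, 1582 and 1592 in the saline libraries. All morphine libraries lay above all saline libraries, and the log2 fold change was 0.34 ± 0.0658 (SE). The difference for IGF2 was larger than for either receptor. The ratio of IGF2 to IGF2R was 0.460 ± 0.0377 in morphine and 0.158 ± 0.0187 in saline libraries (SD, n = 3 each). The ratio of IGF2 to IGF1R was 1.63 ± 0.124 in morphine and 0.444 ± 0.0385 in saline libraries. Neither ratio overlapped between groups, but the set was picked for the rise of IGF2, so this was largely set in advance and is no test. These ratios do not allow for transcript length, so they compare libraries and not the amounts of the transcripts.

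Among the binding proteins IGFBP3, the main carrier of IGFs in blood, differed most. It had 1552, 1383 and 1556 normalized counts in the morphine libraries, against 560.5, 532.2 and 494.6 in the saline libraries. The lowest morphine library was far above the highest saline library. The means were 1497 ± 98.7 in morphine and 529.1 ± 33.0 in saline libraries (SD, n = 3 each), a log2 fold change of 1.498 ± 0.0797 (SE), at rank 387 from the top.

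IGFBP5, a binding protein that also attaches to extracellular matrix, was higher in the morphine libraries too, by less. It had 3536, 3738 and 3584 normalized counts there, against 2548, 2559 and 2529 in the saline libraries, a log2 fold change of 0.51 ± 0.0485 (SE). The 3 saline libraries varied by 0.596%, less than the 2.00% of counting error. RefSeq places IGFBP5 beside IGFBP2 in the rhesus genome (assembly T2T-MMU8v2.0, used for names and neighbours only).

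IGFBP4, which the protease PAPPA cleaves, was low. It had 182.8, 135.3 and 176.8 normalized counts in the morphine libraries, against 93.7, 96.2 and 120.2 in the saline libraries. The groups did not overlap, but the lowest morphine library (149 reads) and the highest saline library (114 reads) were close. The log2 fold change was 0.67 ± 0.1604 (SE), and it was 0.59 to 0.80 without 1 library.

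IGFBP7, a vascular protein that binds IGFs weakly, had the opposite direction. It had 2952, 2950 and 2982 normalized counts in the morphine libraries, against 3474, 3176 and 3259 in the saline libraries. All morphine libraries lay below all saline libraries, and the log2 fold change was -0.16 ± 0.0551 (SE). In RefSeq the span of IGFBP7 overlaps that of POLR2B, a subunit of RNA polymerase, which fell by 0.32 ± 0.0600 (SE; limma adjusted p = 0.0185). The sources used here do not say whether strand was used in counting, so reads from overlapping genes cannot be told apart. Spans without protein-coding overlap but with a pseudogene or a long noncoding RNA were IGF2, IGF1R, IGF2R and IGFBP5.

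The binding proteins thus differed unequally between the groups. The ratio of IGFBP3 to IGFBP7 was 0.505 ± 0.0317 in morphine and 0.1602 ± 0.00795 in saline libraries, that of IGFBP3 to IGFBP5 was 0.414 ± 0.0385 and 0.208 ± 0.0122, and that of IGFBP5 to IGFBP7 was 1.22 ± 0.0392 and 0.772 ± 0.0363 (SD, n = 3 each, morphine and then saline libraries). None of these ratios overlapped between groups, and no scaling of the libraries can change them. For the ratios with IGFBP3 this was largely set in advance, because the set was picked for its rise. They are a description and no test. The ratio of IGF2 to IGFBP3 was closer, at 0.557, 0.728 and 0.528 in morphine and 0.458, 0.467 and 0.452 in saline libraries.

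**Figure D2:**
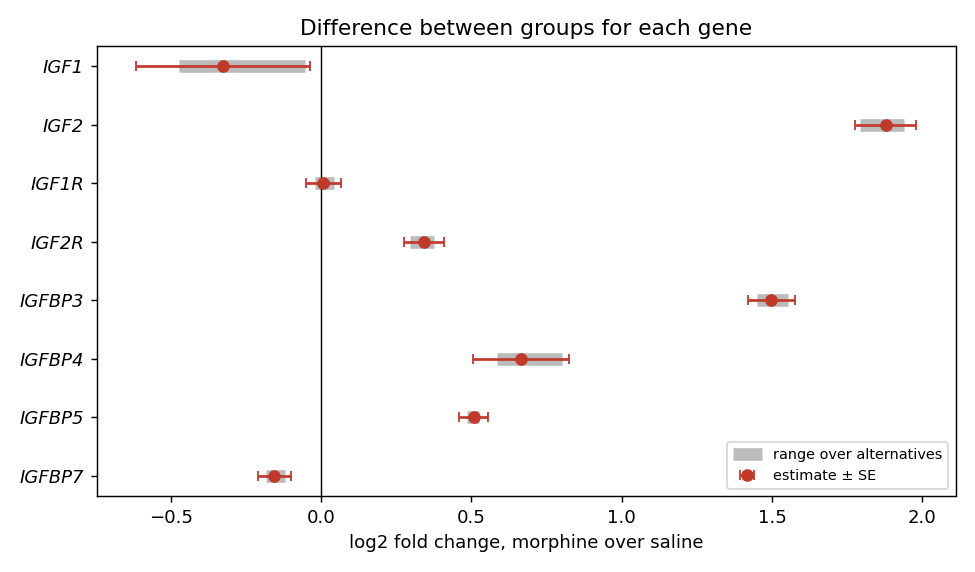
Log2 fold change of morphine over saline (horizontal axis) for each of the 8 genes, with its standard error (bars) and the range over 17 alternative analyses (grey). IGF2 and IGFBP3 stand at 1.88 and 1.498, IGFBP4, IGFBP5 and IGF2R between 0.34 and 0.67, IGF1R at 0.01, and IGFBP7 and IGF1 below 0.

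Read as a group, 5 of the 8 genes were called higher and 0 lower in the limma fit at an adjusted p under 0.05, and 3 were not called (IGF1, IGF1R and IGFBP7). Over all 16595 genes tested 27.9% were called, 12.9% higher and 15.0% lower. Groups did not overlap for 6 of the 8 genes and for 48.7% of all genes. These calls describe where the 8 genes fall in the fit. They are no test of the genes, and nothing is read from the shares, because the set was chosen in this contrast. The median log2 fold change was 0.42 for the 8 genes and 0.01 for all genes. Without morphine library 1 only IGF2, IGFBP3 and IGFBP5 were called. IGF2R was also not called without morphine library 2, and IGFBP4 was not without morphine library 3 or saline library 1 or 2. The authors' deposited table gives log2 fold changes of 1.89 for IGF2, 1.499 for IGFBP3, 0.67 for IGFBP4, 0.51 for IGFBP5, 0.34 for IGF2R and -0.16 for IGFBP7.

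Of 18 leptomeningeal fibroblast markers, cells in which IGF2 is abundant, 10 rose and 1 fell in the same libraries. Over all genes tested 12.9% rose and 15.0% fell. The marker lists were chosen with earlier results of these data known, so their counts are a description. SLC22A8, an organic anion carrier, had 347, 297 and 413 reads in the morphine libraries, against 0, 3 and 3 reads in the saline libraries. At a count of 0, as many as 3 reads would be compatible with counting error. COL1A1, the main fibrillar collagen, rose by 3.54 and the amino acid carrier SLC6A20 by 3.77 on the log2 scale (limma adjusted p = 0.00104 and 0.00248). Other genes of the list moved little: the matrix proteoglycan genes DCN, LUM and OGN did not pass (log2 fold change 0.12, 0.27 and 0.06). Except for SLC22A8, these genes were picked for naming with their values known.

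The summed level of the list is dominated by the retinoid enzyme ALDH1A1, which other cell types make too and which fell by 0.42. No marker of the list with a matched row was at 0 in all libraries, and SLC6A13 and DPEP1 had no such row. Without 1 library, 7 to 9 of the list rose and 1 fell. In bulk RNA, more cells of a type and more RNA per cell cannot be told apart, and the part of these cells in the levels of the IGF genes was not tested.

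Vessel markers did not move one way, and of all genes tested 12.9% rose and 15.0% fell. Of 11 endothelial markers 0 rose and 5 fell, led by the angiopoietin receptor TEK, which fell by 0.75. Their sum was 15167 to 15848 normalized counts in the morphine and 18463 to 19060 in the saline libraries. Of 9 mural cell markers, of smooth muscle and pericytes, 4 rose and 1 fell. The smooth muscle gene CNN1 rose by 1.56 and the pericyte gene RGS5 fell by 0.68. Their sum was 9832 to 10197 in morphine and 8896 to 9343 in saline libraries. Of 3 choroid plexus markers tested the folate receptor FOLR1 rose by 1.24 and the channel protein CLIC6 and the FGF co-receptor KL fell by 1.39 and 0.79, with a sum over 4 genes of 269.0 to 386.8 in morphine and 602.2 to 845.6 in saline libraries. FOLR1 did not pass in edgeR (adjusted p = 0.0607) or DESeq2 (adjusted p = 0.109). Without 1 library, 3 or 4 endothelial markers fell and 2 or 3 mural markers rose. Their part in the results was not tested either.

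Glial markers differed between the groups as well, beside shares over all genes tested of 12.9% that rose and 15.0% that fell. Of 8 astrocyte markers 1 rose and 5 fell, with GFAP up by 0.41 and GJA1 down (log2 fold change -0.94). Their sum was 227630 to 230581 normalized counts in the morphine and 282338 to 287020 in the saline libraries. Of 6 microglia markers 4 rose and 2 fell, with TREM2 up by 1.69 and PTPRC down (log2 fold change -0.51). Their sum was 7533 to 8034 in morphine and 5185 to 5505 in saline libraries. Of 7 oligodendrocyte markers 3 rose and 2 fell (1 or 2 and 0 or 1 without 1 library), with MAL up by 0.61 and UGT8 down (log2 fold change -0.50). Their sum was 265811 to 268050 in morphine and 259685 to 264231 in saline libraries. No marker with a matched row was at 0 in all libraries. Others had no such row and were not analysed. Among these were AIF1, CX3CR1, TMEM119, C1QA and C1QB of microglia and TTR, KCNJ13, OTX2 and AQP1 of choroid plexus. S100B and SOX9 of astrocytes, MAG of oligodendrocytes, CLDN5 and ABCB1 of endothelium and KCNJ8 of mural cells were missing too.

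**Figure D3:**
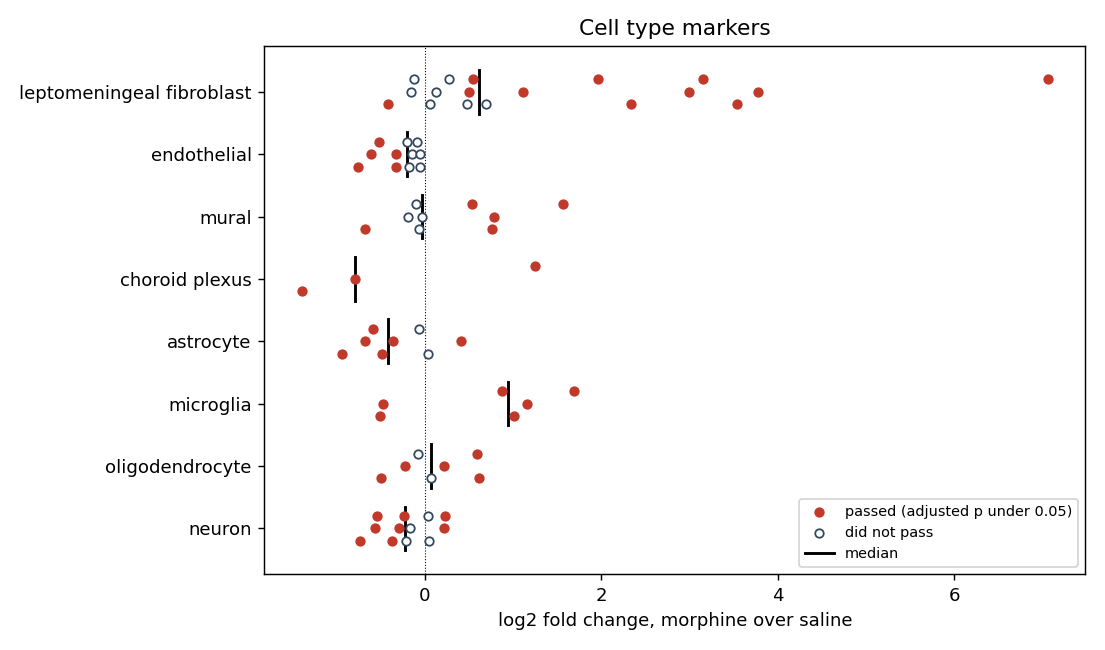
Log2 fold change of morphine over saline (horizontal axis) of cell type markers by list (rows); filled points passed the limma test over all genes, open points did not, and bars are list medians. Leptomeningeal markers spread from -0.42 to 7.06 with a median of 0.62, while the endothelial and astrocyte medians are -0.20 and -0.42.

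How often the wider pathway was called depended on the test and on the filter. Of 75 further genes tested in 6 lists, 11 rose and 10 fell, which is 28.0% against 27.9% of all genes in the limma fit, and their median log2 fold change was -0.0049. These lists cover other extracellular partners, receptor adaptors, the PI3K, AKT and mTOR kinases, the Ras and MAP kinases, FOXO factors with their targets, and imprinted genes. With a minimum mean of 50 instead of 10, limma called 42.0% of 69 pathway genes and 35.8% of all genes. Other tests called a larger share of the 75: 48.0% against 34.4% of all genes with an intensity trend in limma, 48.0% against 34.0% in edgeR, and 49.3% against 36.8% in DESeq2. In the authors' deposited table the shares were 49.3% of the 75 and 29.5% of the 19576 genes tested there. These are more than the 16595 genes of the limma fit, so they include genes with a mean below 10. The 75 include none, so this pair of shares is not like for like and its gap is not compared with the others.

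Among the extracellular partners and receptors 3 of 10 rose and 0 fell, where 12.9% of all genes tested rose and 15.0% fell. STC1, a secreted inhibitor of PAPPA, had 173.2, 88.1 and 125.9 normalized counts in morphine libraries, against 47.4, 47.1 and 56.9 in saline libraries, a log2 fold change of 1.29 ± 0.259 (SE; limma adjusted p = 0.0215). ADAM28, a protease that can cleave IGFBP3, rose by 0.78 ± 0.207 (adjusted p = 0.0450) and INSR, the insulin receptor, by 0.33 ± 0.0650 (adjusted p = 0.0210). All 3 calls were weak: 0 to 2 of the list rose without 1 library. STC1 did not pass without morphine library 3 or saline library 1 or 2, and INSR passed only without saline library 1. The proteases PAPPA and PAPPA2 did not pass, at 29.0 ± 6.13 and 63.0 ± 12.6 normalized counts in the morphine and 18.5 ± 9.40 and 36.2 ± 22.8 in saline libraries (SD, n = 3 each). The median log2 fold change of the 10 was 0.53.

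Of 12 receptor adaptors 2 rose and 2 fell (33.3%, against 27.9% of all genes tested). The docking proteins IRS1 and IRS2, the main substrates of IGF1R, did not pass: IRS1 averaged 1302 ± 112 in morphine and 1385 ± 50.9 normalized counts in saline libraries, and IRS2 averaged 894.9 ± 49.95 and 876.2 ± 42.9 (SD, n = 3 each). The adaptors SHC1 and SH2B2 rose by 0.50 ± 0.0441 and 0.54 ± 0.0713 (SE; limma adjusted p = 0.00340 and 0.00743). The phosphatase PTPN11 and the docking protein GAB1 fell by 0.55 ± 0.0910 and 0.31 ± 0.0769 (adjusted p = 0.0131 and 0.0383). GAB1 passed in 2 of the 6 fits without 1 library, and the other 3 genes in all of them.

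The PI3K, AKT and mTOR list had the most calls, 9 of 19 (47.4%, against 27.9% of all genes tested), in both directions. PIK3CA, a catalytic subunit of PI3K, fell by 0.88 ± 0.0910 and averaged 369.1 ± 15.9 normalized counts in the morphine and 681.5 ± 69.7 in saline libraries (SD, n = 3 each; limma adjusted p = 0.00438). PIK3R1, a regulatory subunit, fell by 0.67 ± 0.0582 (adjusted p = 0.00329).

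Smaller rises in the same list were those of TSC2, a brake on mTOR (0.31 ± 0.0459), of the regulatory subunit PIK3R2 (0.28 ± 0.0663) and of the kinase AKT1 (0.27 ± 0.0517), with limma adjusted p = 0.00962, 0.0331 and 0.0197. MTOR itself fell by 0.22 ± 0.0463 (adjusted p = 0.0239), but its call was lost whichever library was left out (adjusted p between 0.0539 and 0.0767). In the 6 fits that leave out 1 library, 1 to 3 of the list rose and 3 to 5 fell. AKT1 passed in 2 of them and PIK3R2 in 1. Among genes that did not pass, RPS6KB1, the kinase of ribosomal protein S6, had 549.6 normalized counts in saline library 1 and 1690 to 2317 in the other 5 libraries, a gene picked for naming with its values known.

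Of 15 Ras and MAP kinase genes 1 rose and 1 fell (13.3%, against 27.9% of all genes tested). Both are kinases downstream of the MAP kinases: RPS6KA1 rose by 0.62 ± 0.0845 and RPS6KA3 fell by 0.63 ± 0.0834 (SE; limma adjusted p = 0.00803 and 0.00743). The edgeR and DESeq2 tests called more of this list, 5 up and 5 down in each. Of 13 FOXO factors and targets 1 rose and 1 fell (15.4%, also below the share of all genes). TXNIP, which limits glucose uptake, rose to 6109, 6283 and 6062 normalized counts in morphine libraries, against 2573, 2664 and 2426 in saline libraries, a log2 fold change of 1.27 ± 0.0571 (SE; adjusted p = 0.00114). CCNG2, a cyclin, fell by 0.42 ± 0.0527 (adjusted p = 0.00655). FOXO3, a factor that AKT holds out of the nucleus, did not pass in limma (log2 fold change -0.14 ± 0.0485, adjusted p = 0.0840) but did in edgeR (adjusted p = 0.0163).

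IGF2 is an imprinted gene, read in many but not all tissues from the copy of one parent, and 6 other imprinted genes were tested. Of these NDN, a growth suppressor of neurons, rose, by 0.35 ± 0.0907 (SE; limma adjusted p = 0.0414), and passed in 1 of the 6 fits without 1 library. Called genes were 16.7% of this list, against 27.9% of all genes tested. The amino acid carrier SLC38A4 did not pass (log2 fold change -3.64 ± 1.194, SE; limma adjusted p = 0.0779). It had 0, 0 and 16 reads in the morphine and 36, 38 and 20 in the saline libraries. The size of its fold change therefore depends on the pseudocount. The cell cycle inhibitor CDKN1C averaged 231.7 ± 47.6 normalized counts in the morphine and 227.0 ± 36.9 in saline libraries (SD, n = 3 each) and did not pass. DLK1, a membrane protein of the Notch family, was below the level for testing, with 18, 30 and 11 reads in the morphine libraries and 0 in each saline library. CDKN1C, SLC38A4 and DLK1 were picked for naming with their values known.

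**Figure D4:**
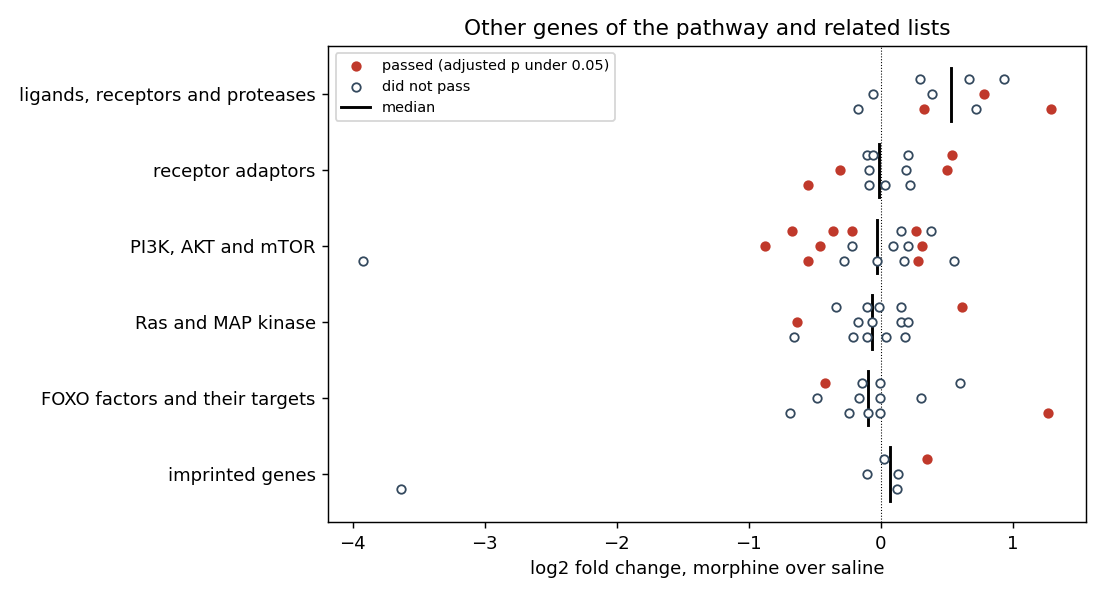
Log2 fold change of morphine over saline (horizontal axis) of 75 other genes of the IGF pathway and related lists (rows); filled points passed the limma test over all genes, open points did not, and bars are list medians. The medians lie between -0.10 and 0.07 except for the extracellular list, at 0.53.

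The neighbours of the 10 genes in RefSeq differed in both directions. Near IGF2, INS averaged 36.4 ± 17.8 normalized counts in the morphine and 22.1 ± 8.51 in saline libraries and TH 20.9 ± 14.7 and 13.7 ± 8.10 (SD, n = 3 each), and neither passed. Both are low, so a difference could be missed. MRPL23, of the mitochondrial ribosome and on the other side of IGF2, rose by 0.30 ± 0.0698 (SE; limma adjusted p = 0.0318). Near IGF2R, the organic cation carrier SLC22A2 had 69.1, 56.3 and 114.3 normalized counts in morphine libraries, against 7.89, 8.02 and 8.44 in saline libraries, a log2 fold change of 3.09 ± 0.266 (adjusted p = 0.00329). Next to IGFBP3, TNS3 did not pass (log2 fold change -0.40 ± 0.193). Counting the closest protein-coding genes on each side, up to 2 per side, 19 other genes were tested, of which 3 rose and 4 fell. Among all genes tested 12.9% rose and 15.0% fell. The neighbours were added after the values had been seen.

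The genes with a profile most like that of IGF2 over the 6 libraries were BAIAP3, CCN3, PI16, RTP5 and FBLN2. Likeness was the root mean square difference of log2 values taken relative to the saline mean, which was 0.0943 for BAIAP3 and 0.163 for FBLN2, out of 12948 genes with a symbol. FBLN2 is an extracellular matrix protein, CCN3 a matricellular one and PI16 a marker of fibroblasts around vessels, while BAIAP3 takes part in vesicle release. PI16 averaged 410.0 ± 54.7 normalized counts in the morphine and 115.3 ± 15.0 in saline libraries (SD, n = 3 each). FBLN2 averaged 919.1 ± 78.1 and 238.2 ± 25.3. In the same order, BAIAP3 averaged 3665 ± 127.1 and 1015 ± 118.6, CCN3 942.8 ± 135.6 and 281.2 ± 23.49, and RTP5 729.7 ± 18.15 and 186.4 ± 18.93.

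Most like IGFBP3 were PENK, the enkephalin precursor, NPHP4, ZNF337, ENDOU and WHRN, at 0.0782 for PENK and 0.142 for WHRN. WHRN averaged 565.3 ± 1.98 normalized counts in the morphine and 199.5 ± 20.02 in saline libraries (SD, n = 3 each). The 10 genes share their libraries with IGF2 and IGFBP3, and a like profile over 2 groups mostly reflects a like difference between them.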

How the data were processed

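Polyadenylated RNA was sequenced in 6 libraries, and sample titles gave groups and replicate numbers. Tools listed without a role, per the submitters' processing notes, were DESeq2 1.18.1, StringTie and Bowtie2 2.1.0, beside the build hg19. Gene identifiers are rhesus, the sources used here do not give the annotation used for counting, and no coordinates are printed. The authors deposited normalized counts, a signal equal to reads over each library's size factor, as the column names and the values show (per the file headers). The same deposited table holds the authors' log2 fold changes with standard errors, test statistics (a score) and p-values. Every value was a whole multiple of 1 read within 0.001 (100% in each library), so reads were recovered. Floors of 3 reads cover counting error only. Intervals of log2 fold changes come from the limma fit and, like its standard errors, measure the spread between these libraries.

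The test was limma 3.58.1 (R 4.3.3) on log2(value + 1), which understates changes of low genes, for genes with a mean of at least 10 over the 6 libraries, with Benjamini-Hochberg adjustment over all genes tested and calls at an adjusted p under 0.05. Alternatives were TMM and upper-quartile scaling, no filter, a minimum of 50, pseudocounts of 0.5 and 5, an intensity trend, the replicate block, each library left out, edgeR 4.0.16 and DESeq2 1.42.0 on recovered reads, the authors' comparison and an adjusted p under 0.01. On recovered reads edgeR called 5636 genes and DESeq2 6105. The code was tested on simulated data.

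The genes of the IGF system and the lists were chosen with earlier results of these data known. Named genes were the IGF genes, the up to 3 largest rises and falls among called genes of each pathway list, INSR, IRS1, IRS2, AKT1, MTOR and FOXO3, the largest rise and fall of each marker list and the 5 genes nearest in profile to IGF2 and to IGFBP3; other names were added after values had been seen. Some genes that enter the counts are not reported here by name. Symbols matched 15436 of 23191 identifiers (66.6%), and listed genes without a match were not analysed here. Replicate pairs differed by more than sampling noise (mean chi-square 17.5 to 23.8, where noise gives about 1). Figures were drawn with matplotlib 3.10.9.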

Additional observations from a re-analysis of the deposited data

How the results depend on the processing

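For the 8 genes of the IGF system, all 136 log2 fold changes under 17 alternatives stayed within 1 SD between libraries of the reported value. For many alternatives this was fixed in advance. The filters, the replicate block and the intensity trend leave these log2 fold changes unchanged. Leaving out 1 of 3 libraries in a group cannot move them by 1 SD. Counts of calls moved more. With the replicate block 1577 genes, 3 IGF genes and 9 pathway genes were called, against the reported 4631, 5 and 21. Same-numbered libraries did not deviate together over the genes tested (correlations -0.0563, -0.00392 and -0.0284). These correlations cannot show whether such libraries share an animal or a preparation, and this was not tested. Without a filter 2993 genes and 13 pathway genes were called, and at an adjusted p under 0.01 there were 1532, 3 and 10. The intensity trend and edgeR each called 36 pathway genes, and DESeq2 and the authors' deposited comparison 37. Without 1 library 2536 to 3181 genes, 3 to 5 IGF genes and 12 to 18 pathway genes were called. IGFBP7 was called lower with the intensity trend, in edgeR, in DESeq2 and in the authors' comparison, and in no other fit. Of the 6 fits without 1 library, TUBB3 passed in 0, CNN1 and ADAM28 in 1 each, FOLR1 and PTPRC in 2 each and UGT8 in 3. No scaling moved the median of all genes by over 0.1. INS and FOLR1 averaged 29.3 and 18.3 normalized counts over the 6 libraries, and at this depth a small difference in them was not detectable.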
